A study of Mus musculus with 4 samples.

Results

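The miR-221 and miR-222 cluster comprises a pair of neighbouring microRNA hairpins known to be induced when T cells are activated. The deposited table lists 1073 mature miRNAs of mouse CD4+ T cells. The 4 rows whose identifier is exactly mmu-miR-221-3p, mmu-miR-221-5p, mmu-miR-222-3p or mmu-miR-222-5p (mmu for mouse, left out below) were taken. The rule names identifiers and uses no measured value, but the cluster was picked with earlier results of these data known. All 4 were present, and all 4 reached a base mean (the authors' mean normalized count over all libraries) of at least 10, as did 482 of the 1073 miRNAs.

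The cells were naive CD4+ T cells of wild-type mouse spleen, transfected with ASO or with its control CRO, activated with antibodies to CD3 and CD28, and harvested 48 h later. The labels do not expand either name and give no target for ASO, and no unactivated or untransfected group is among the samples. Each group held 2 samples. The labels do not say whether a group's samples were taken from different animals or cultures, so every p-value below reflects sample-to-sample spread that could be technical in part or whole.

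A microRNA hairpin is cut into a duplex, and 1 strand, the guide, is kept by an Argonaute protein while the other, the passenger, is mostly degraded. The guide pairs through its seed, bases 2 to 8 from the 5′ end, with sites in messenger RNAs and lowers their output. miR-221 and miR-222 are best known for repressing p27 (gene Cdkn1b), the inhibitor of cyclin-dependent kinases that holds resting lymphocytes out of the cell cycle. They are also abundant in endothelium, where they repress the receptor Kit.

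The mature sequences show why the 3p arms are treated as 1 targeting unit. RefSeq (GRCm38.p6) holds 3 of the 4 members, printed here 5′ to 3′ with the seed in capitals, and miR-222-5p is named only.
miR-221-3p: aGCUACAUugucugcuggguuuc
miR-222-3p: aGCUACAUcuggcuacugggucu
miR-221-5p: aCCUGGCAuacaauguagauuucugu
The 3p arms share the first 8 bases, seed included, and 11 of 23 positions in all when aligned from the 5′ end without gaps. The 5p arm of miR-221 has another seed. In the same RefSeq table miR-1928 also carries the seed GCUACAU, but the authors' deposited table does not list it. No further annotated mouse miRNA in RefSeq carries that seed.

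The hairpins are printed to show where the arms lie, with the annotated mature arms in capitals.
Mir221 hairpin: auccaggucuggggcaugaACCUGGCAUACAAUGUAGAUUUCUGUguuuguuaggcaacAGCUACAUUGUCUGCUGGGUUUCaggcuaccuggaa
Mir222 hairpin: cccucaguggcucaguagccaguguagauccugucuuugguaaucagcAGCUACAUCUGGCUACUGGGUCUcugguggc
Both genes lie on the minus strand of chromosome X, with 0 annotated RefSeq genes between them. The pseudogene Gm5383 lies beyond Mir221 and the lncRNA Gm14636 beyond Mir222. The authors worked on mm9, another build, so no coordinates are given.

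The site that the seed pairs with is shown for p27, because that target is the one the cluster is known for. The 3′ UTR of Cdkn1b on chromosome 6 (GENCODE M21 transcript, 3439 bases) holds 1 match to ATGTAGC, the complement of bases 2 to 8, at position 2357. The match is in capitals, with the bases before and after it.
Cdkn1b site: ctctaaaagcattggATGTAGCa
Another match of the same length, TGTAGCA (bases 2 to 7 and an A opposite base 1), occurs 3 times in that UTR, 1 of them within the site above. Only the transcript strand was searched. Of 20814 3′ UTRs, the longest of each coding gene, 9.55% hold ATGTAGC at least once. Among the 1953 whose length is within 20% of that of Cdkn1b the share is 22.2%, and 26.1% hold TGTAGCA. The sequence ATGTAGC occurs once in the 3′ UTR of Cdkn1c, the related inhibitor p57, and 2 times each in those of Kit and of Bcl2l11, which encodes the death-promoting protein Bim. These matches are a description of the sequences. Messenger RNA was not measured in the samples used here.

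Counts per library were recovered from the deposited group means, as set out under the processing, and summed to 10192717 and 10483405 in ASO and to 5617699 and 3300457 in CRO. Since the labels' replicate numbers cannot be tied to the recovered libraries, these are named a and b in each group. The letter a stands for the larger size factor of a group, and nothing links libraries of the same letter across groups. A normalized count is a count divided by the library's DESeq size factor, and 1 read covers a whole mature miRNA, so it needs no division by length. Capture of a miRNA also depends on its end sequences, which affects levels set between miRNAs but not the same miRNA between libraries. Of the markers none is particular to T cells, so the label was checked only as far as blood cells: miR-142a-3p, miR-142a-5p, miR-155-5p and miR-150-5p summed to between 1843322 and 2234794 normalized counts per library. Erythroid markers summed to between 1419 and 2481 (4 miRNAs), myeloid to between 5599 and 7239 (2), endothelial to between 1399 and 2334 (2), epithelial to between 4464 and 5525 (6), and smooth muscle and stromal to between 3.69 and 9.85 (2). No marker was at 0 in every library, and miR-145a-5p, a smooth muscle marker, was at 0 in both CRO libraries. In bulk RNA fewer cells of a type and less RNA per cell cannot be told apart.

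miR-221-3p, the guide arm of miR-221, was the most counted member by a wide margin. It had 5729 normalized counts in ASO a, 5657 in ASO b, 5635 in CRO a and 5946 in CRO b. These come from 9317, 8044, 4406 and 3310 reads, which made up 0.0914%, 0.0767%, 0.0784% and 0.100% of their libraries. All 4 libraries lay close together, and both ASO values fell between the CRO values. By base mean, 5742, miR-221-3p ranked 65 of 1073. The place within single libraries ran from 60 in CRO b to 69 in CRO a.

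miR-222-3p, the guide arm of miR-222 with the same seed, was present at 636 normalized counts in ASO a, 473 in ASO b, 615 in CRO a and 602 in CRO b. ASO b was the low library, and the other 3 lay within a narrow band. The 95% exact Poisson intervals were 598 to 676 for ASO a and 438 to 510 for ASO b. They cover only the counting error of independent reads, and the ASO libraries differed by more than that. Duplicate reads, which cannot be seen here, would widen the intervals. Its reads numbered 1034, 673, 481 and 335 in the same order, and it ranked 153 by base mean (582).

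The passenger arms were rarer. miR-221-5p had 80.6 and 72.4 normalized counts in ASO and 74.2 and 95.2 in CRO, from 131, 103, 58 and 53 reads. miR-222-5p had 23.4 and 27.4 in ASO and 17.9 and 28.7 in CRO, from 38, 39, 14 and 16 reads. For both arms the ASO and CRO values overlapped, and CRO b was the highest library. With so few reads the 95% Poisson interval of miR-222-5p in CRO a ran from 9.79 to 30.04 normalized counts, wide enough to hold each of its other 3 values.

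**Figure D1:**
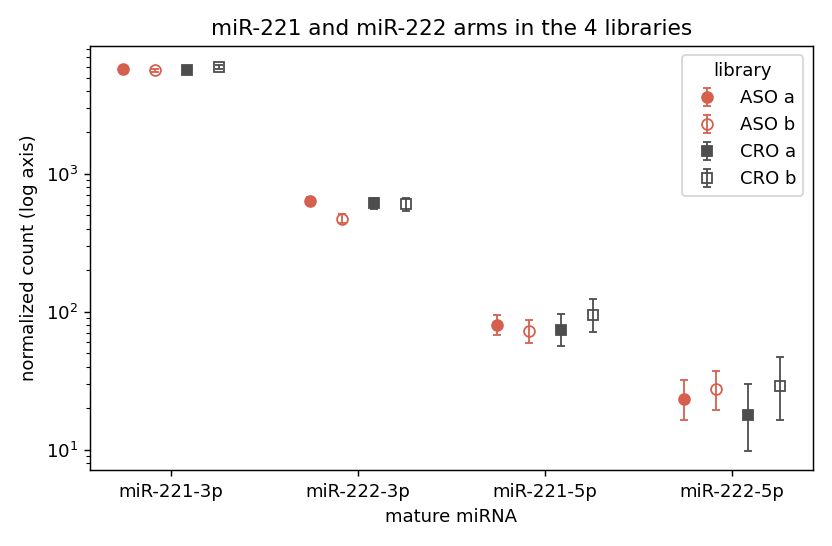
Normalized counts (vertical log axis) of the 4 mature miRNAs in each library, circles for ASO and squares for CRO, filled for library a and open for b, with bars for the 95% exact Poisson interval of counting error. The order of the arms is the same in all 4 libraries, from between 5635 and 5946 for miR-221-3p down to between 17.9 and 28.7 for miR-222-5p.

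The order of the members was miR-221-3p, miR-222-3p, miR-221-5p and miR-222-5p in 4 of 4 libraries, and no neighbours in it overlapped. miR-221-3p exceeded miR-222-3p by 9.01 to 12.0 times, miR-222-3p exceeded miR-221-5p by 6.32 to 8.29 times, and miR-221-5p exceeded miR-222-5p by 2.64 to 4.14 times. Thus the passenger arm of miR-221 was closer in level to the guide arm of miR-222 than the guide arms were to each other.

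Since the guide arms share their seed, their counts were also added. The sum was 6365 and 6131 normalized counts in the ASO libraries a and b, and 6250 and 6548 in the CRO libraries. miR-221-3p made up 90.0% and 92.3% of it in ASO and 90.2% and 90.8% in CRO. The whole cluster took 0.103% and 0.0845% of all reads in ASO, and 0.0883% and 0.113% in CRO. The groups overlapped in each of these measures.

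None of the 4 members differed between ASO and CRO in the authors' deposited table. There miR-221-3p had a log2 ratio of ASO over CRO of -0.02, miR-222-3p of -0.13, miR-221-5p of -0.15 and miR-222-5p of 0.12. Each had an adjusted p of 1, and the raw p ran from 0.717 for miR-222-3p to 0.959 for miR-221-3p, so 0 of 4 passed raw or adjusted. The background in that table was 1.21% of 1073 miRNAs called at an adjusted p under 0.05, and 2.8% at a raw p under 0.05. Those called were lower in ASO for 1.12% of the 1073 and higher for 0.0932%. By size, miR-221-3p had one of the smaller ratios in the table: of the 482 miRNAs that reached the floor of 10, only 20 (4.15%) lay nearer to 0. For miR-222-5p, miR-222-3p and miR-221-5p that share was 20.1%, 21.8% and 23.7%. The median absolute log2 ratio of the 482 was 0.29.

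**Figure D2:**
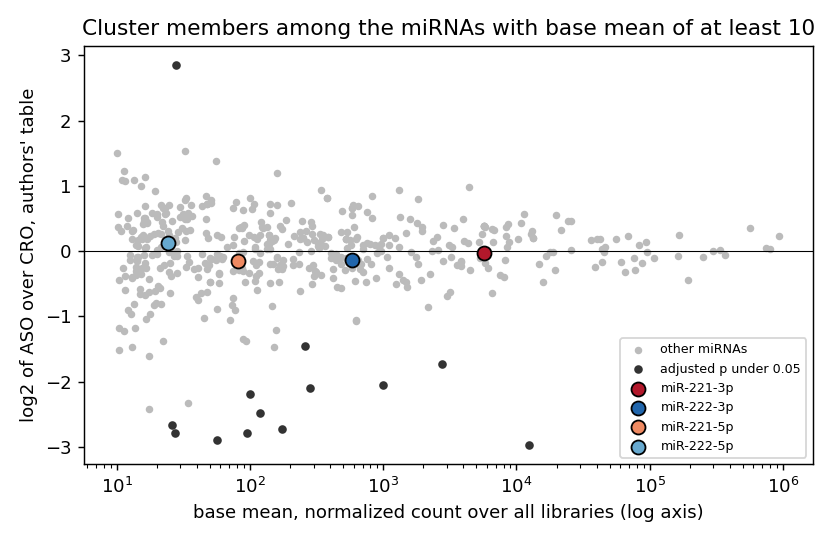
Log2 ratio of ASO over CRO (vertical) against base mean (horizontal log axis) for the 482 tested miRNAs, from the authors' deposited table, with dark points for an adjusted p under 0.05 and the 4 members in colour. The members lie between -0.15 and 0.12, close to the line of no difference at every level of abundance.

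The recovered libraries give these ratios an error, in which limma combines a member's own spread with that of the other miRNAs. A limma fit over all 482 miRNAs, on log2(normalized count + 1), which understates the change of low miRNAs, gave miR-221-3p a log2 ratio of -0.02 ± 0.21 (SE, 2 libraries per group; limma adjusted p = 0.971). The 95% interval ran from -0.51 to 0.47, that is from 0.700 to 1.38 times the CRO level. miR-222-3p was at -0.15 ± 0.25 (interval 0.599 to 1.36 times, limma adjusted p = 0.836) and miR-221-5p at -0.14 ± 0.30 (0.559 to 1.48 times, limma adjusted p = 0.874). miR-222-5p was at 0.15 ± 0.40, with an interval from 0.586 to 2.10 times (limma adjusted p = 0.888). A 2-fold change in either direction therefore lay outside the interval of both guide arms and of miR-221-5p, and a 2-fold rise lay inside that of miR-222-5p. A p that misses the threshold does not show that the groups were alike.

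In the same fit limma called 3.11% of the 482 miRNAs at an adjusted p under 0.05, and 12.2% had a raw p under 0.05, against 0 of the 4 members by either rule. That background moved with single libraries: the 59 miRNAs at a raw p under 0.05 became 23 without ASO b, 31 without ASO a, 77 without CRO b and 154 without CRO a. The ASO and CRO values overlapped for 4 of 4 members, while they did not overlap for 41.9% of the 482. With 2 libraries a group, values in random order would not overlap at a share of 0.333. The sign of miR-221-3p turned with upper-quartile scaling, where its log2 ratio was 0.069. The sign of miR-222-3p rested on the low library: without ASO b its log2 ratio was 0.063, and without ASO a it was -0.36. Without CRO b the log2 ratio was 0.015 for miR-221-3p and 0.042 for miR-221-5p, and without CRO a it was -0.18 for miR-222-5p, so each member had 1 library whose omission turned its sign.

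**Figure D3:**
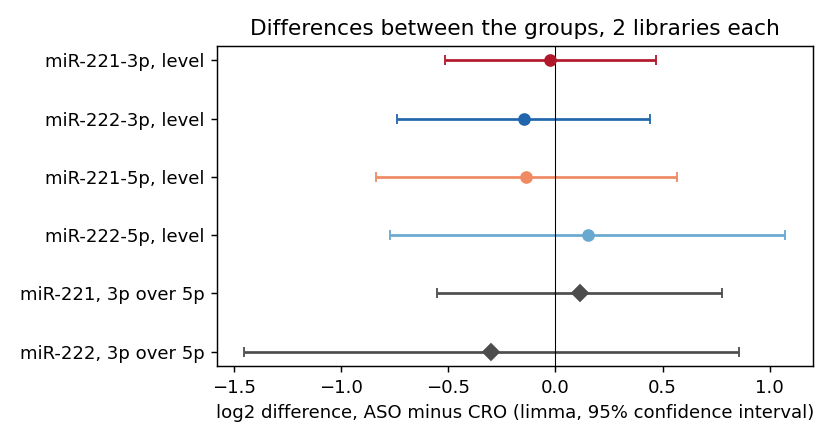
Log2 difference, ASO minus CRO, with its 95% confidence interval from limma (horizontal), for the level of each member (circles) and for the 3p over 5p ratio of each hairpin (diamonds), 2 libraries per group. All 6 intervals cross 0, and the widest is that of the miR-222 arm ratio, from -1.45 to 0.85.

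Both hairpins favoured the 3p arm in every library, and miR-221 did so more strongly. For miR-221 the guide outnumbered the passenger 71.1 and 78.1 times in ASO and 76.0 and 62.5 times in CRO. The passenger held 1.39% (95% Clopper-Pearson interval 1.16 to 1.64) and 1.26% (1.03 to 1.53) of the hairpin's reads in ASO. In CRO it held 1.30% (0.988 to 1.68) and 1.58% (1.18 to 2.06). These intervals overlap throughout, so no library stood apart in the arm use of miR-221.

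For miR-222 the guide outnumbered the passenger 27.2 and 17.3 times in ASO and 34.4 and 20.9 times in CRO. The passenger held 3.54% (2.52 to 4.83) and 5.48% (3.92 to 7.41) of the reads in ASO, and 2.83% (1.55 to 4.70) and 4.56% (2.63 to 7.30) in CRO. ASO b and CRO b, which are not a pair, had the higher shares, and all 4 intervals overlap. The ratios of the 2 groups interleaved for both hairpins.

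The arm ratio was compared between the groups by fitting limma to the log2 difference of 3p and 5p over 135 hairpins. These had both arms at a base mean of at least 10 and arm names alike but for 3p or 5p. Hairpins with a locus number in an arm's name only were not paired. For miR-221 the mean log2 ratio of guide over passenger was 6.20 ± 0.09 (SD, n = 2) in ASO and 6.09 ± 0.20 in CRO. The difference was 0.11 ± 0.24 (SE; limma adjusted p = 0.972), with a 95% interval from -0.55 to 0.78. For miR-222 it was 4.38 ± 0.46 (SD, n = 2) in ASO and 4.68 ± 0.48 in CRO, a difference of -0.30 ± 0.40 (SE; limma adjusted p = 0.972) with an interval from -1.45 to 0.85. limma called 0% of the 135 hairpins, and 7.41% had a raw p under 0.05. Leaving out 1 library turned the sign for both: for miR-221 the difference was -0.027 without CRO b, and for miR-222 it was 0.024 without ASO b and 0.043 without CRO a.

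Within a library, guide over passenger was higher for miR-221 than for miR-222 in 4 of 4 libraries. On the log2 scale the gap ran from 1.202 to 2.21, with a mean of 1.61 ± 0.43 (SD, n = 4 libraries). A two-sided exact permutation test, chosen after the values were seen, gave p = 0.125, the smallest that 4 pairs allow.

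Set against the other hairpins, neither was extreme. Of the 135 hairpins 56 favoured the 3p arm and 79 the 5p arm, and the median imbalance was 10.02 times. Over the 4 libraries the mean imbalance was 70.8 times for miR-221 and 23.2 times for miR-222. There were 32 hairpins (23.7%) more lopsided than miR-221 in either direction, 11 of them toward 3p, and 49 (36.3%) more lopsided than miR-222, 18 of them toward 3p. Some share the same 3p base mean: miR-466b, miR-466c and miR-466p (5728), miR-669a and miR-669o (13274), and miR-297a and miR-297b (529). All of these lay further toward 3p than miR-222, so the counts toward 3p repeat some 3p values. Hairpins whose lesser arm fell under a base mean of 10 are not in this count, so the most one-sided hairpins are partly missing from it. Those with a locus number in an arm's name only are missing too.

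**Figure D4:**
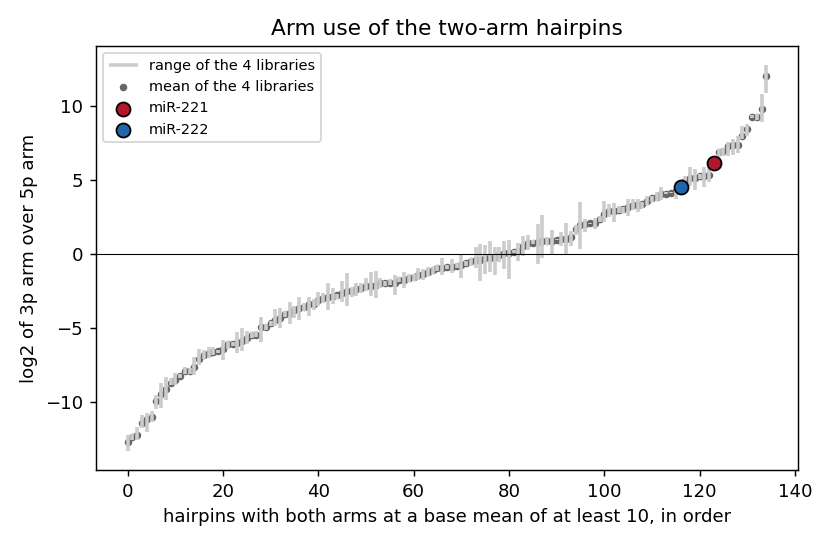
Mean log2 ratio of 3p over 5p (vertical) for the 135 hairpins, in rising order (horizontal), with bars for the range of the 4 libraries. The hairpins had both arms at a base mean of at least 10 and arm names alike but for 3p or 5p. miR-221 stands at 6.15 and miR-222 at 4.53, both within the upper part of the 3p side and below the most one-sided hairpins.

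The ratio of miR-221 to miR-222, whose hairpins lie side by side, was also followed between libraries. For the guide arms the log2 ratio was 3.17 in ASO a, 3.58 in ASO b, 3.19 in CRO a and 3.30 in CRO b. ASO b, the library low in miR-222-3p, was the high one, and the groups overlapped. The mean was 3.37 ± 0.29 (SD, n = 2) in ASO and 3.25 ± 0.08 in CRO, a difference of 0.13 (exact permutation p = 1). For the passenger arms the log2 ratio was 1.74, 1.37, 1.99 and 1.69 in the same order, with means of 1.56 ± 0.26 (SD, n = 2) in ASO and 1.84 ± 0.21 in CRO (exact permutation p = 0.667). With 2 libraries a group the smallest two-sided p is 0.333. Without ASO b the guide arm difference turned to -0.078.

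The library pairs show how steady each member was. Between the ASO libraries, a over b, the log2 ratio was 0.02 for miR-221-3p and 0.43 for miR-222-3p, where the counting error (SE) was 0.02 and 0.07. Between the CRO libraries it was -0.08 and 0.03, with counting errors of 0.03 and 0.10. For the 273 miRNAs whose base mean reached 100, the absolute value had a median of 0.23 between the ASO libraries and 0.39 between the CRO libraries. miR-221-3p therefore varied less than most miRNAs of its libraries, and miR-222-3p varied more in ASO and less in CRO. For the passenger arms the same ratio was 0.15 (miR-221-5p) and -0.23 (miR-222-5p) in ASO and -0.36 and -0.68 in CRO, each within 2 counting errors.

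miRNAs counted at about the level of miR-221-3p were miR-223-3p, miR-27a-3p and miR-29c-3p above it (6135, 5846 and 5826 base mean) and miR-466e-3p, miR-466b-3p and miR-466c-3p below it (5735, 5728 and 5728). Their ranges over the libraries were all wider than that of miR-221-3p and overlapped it. miR-223-3p is a myeloid marker, so the cluster's main product stood about level with it. The 3 miR-466 miRNAs are nearly the same in sequence, and how the authors split reads among them is uncertain. Around miR-222-3p lay miR-378d (612), miR-574-5p (607) and miR-18b-5p (591) above, and miR-467b-5p (580), miR-467a-5p (580) and miR-30a-5p (579) below, all overlapping it. The miR-467 pair has identical values and is uncertain in the same way.

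Likeness of pattern was measured as the root mean square distance between miRNAs in log2(normalized count + 1) over the 4 libraries, after removing each one's mean. It is a description over 4 points that share their libraries, and a flat profile is matched by other flat ones. The 5 miRNAs nearest to miR-221-3p were miR-324-5p (0.028), miR-194-5p (0.034), miR-298-5p (0.042), let-7c-5p (0.044) and let-7e-5p (0.047), against a median of 0.31 over all tested. The nearest to miR-222-3p were miR-330-3p (0.019), miR-466i-3p (0.025), miR-652-3p (0.059), miR-28a-5p (0.076) and miR-877-5p (0.084). The cluster's own members were not the nearest: miR-221-5p stood in place 32 and miR-222-3p in place 72 of 481 for miR-221-3p, and miR-222-5p in place 162. For miR-222-3p, miR-221-3p stood in place 25, miR-221-5p in place 32 and miR-222-5p in place 252. The distances include counting error, which is large for miRNAs with few reads. For miR-222-5p it was 0.33 between the ASO libraries and 0.53 between the CRO libraries (SE, log2).

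These 3 lists, drawn up with earlier results of these data known, set the cluster beside miRNAs of related roles, and their counts are a description. Each is described in the authors' deposited table by its counts and its median, beside a median of 0.04 and 53.1% above 0 over the 482. Of 17 tested miRNAs that T cell activation induces, 13 had a log2 ratio above 0 and 4 below, with a median of 0.23, and 0 passed in either direction. Some of the 17 are neighbours in clusters of their own, so they are not separate observations. The list's most counted members were miR-155-5p (0.23), which supports effector T cells, miR-21a-5p (0.05), miR-146a-5p (-0.08), a brake on NF-kB, and miR-92a-3p (-0.32). Both guide arms of the cluster lay below 0 in that table. In level, 10 of the 17 were counted more than miR-221-3p and 16 of the 17 more than miR-222-3p. A raw p under 0.05 was seen for miR-96-5p (0.98) and miR-18a-5p (0.80), named after their values were seen. Their adjusted p was 0.332 and 1 in the authors' deposited table.

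Of 11 miRNAs that activation reduces, 2 lay above 0 and 9 below, with a median of -0.18 and 0 passing. The most counted were miR-150-5p (-0.45), which targets the transcription factor Myb, miR-26b-5p (-0.01), miR-26a-5p (-0.18) and miR-342-3p (-0.17). miR-99a-5p (-0.84), named after its value was seen, was the 1 member with a raw p under 0.05.

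The last list held miRNAs that, like miR-221 and miR-222, have been described in mammalian cells as targeting p21, p27 or p57. Of 11 tested, 10 lay above 0 and 1 below, with a median of 0.34 and 0 passing. The most counted were miR-25-3p (0.09), miR-93-5p (0.19), miR-24-3p (0.19) and miR-20a-5p (0.46). The one below 0 was miR-92b-3p (-0.72), named after its value was seen. Several of its members belong to the miR-17 seed family and share that seed, and miR-17-5p and miR-20a-5p are also in the activation-induced list, so the lists overlap.

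Markers of other cell types had the following log2 ratios beside these values. All 4 tested erythroid markers lay below 0 (median -0.64, miR-451a at -0.50), as did both myeloid ones (median -0.47, miR-223-3p at -0.25) and 5 of 5 tested epithelial ones (median -0.25, miR-200c-3p at -0.44). Both endothelial markers, miR-126a-3p (0.28) and miR-126a-5p (0.24), lay above 0. None passed in the authors' deposited table, and their part in the levels of miR-221 and miR-222 was not tested.

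**Figure D5:**
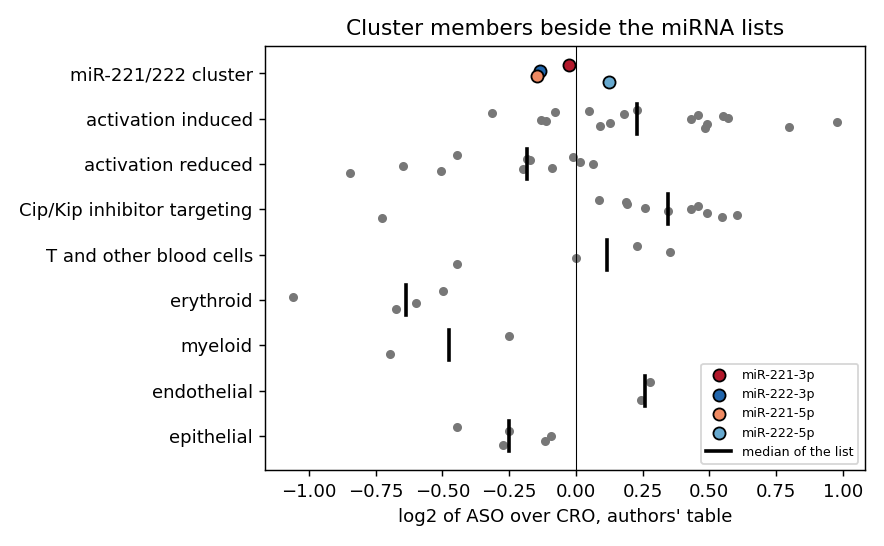
Log2 ratio of ASO over CRO (horizontal) in the authors' deposited table for the 4 cluster members and for each tested miRNA of the lists, with a bar at each list's median. The members lie between -0.15 and 0.12, inside the spread of the activation-induced list, whose median is 0.23.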

How the data were processed

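The samples were 2 transfected with ASO and 2 with CRO. Per the labels' protocols, Trizol was used for RNA and an Illumina TruSeq small RNA kit for the libraries. The submitters' processing notes name DESeq and the mm9 build; the sources used here do not give the aligner, trimming or miRNA annotation. Per the file headers, the authors deposited a signal (mean normalized count over all libraries and per group), plus, for each miRNA, raw and adjusted p-values and the fold, linear and as log2. Their ratios are CRO over ASO, turned here to ASO over CRO. They also deposited a count of called miRNAs (21), which equals the number past both a 2-fold difference and a raw p of 0.05.

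Because the table holds group means, counts per library were recovered from values of 15 digits, by finding the 2 whole numbers that, over the libraries' size factors, average to each mean. All 1073 means per group could be written so. In ASO, miR-155-5p could be written in 6 ways, and the 1 way under which the median-ratio size factors equalled all 4 recovered ones (relative tolerance 1e-09, 636 miRNAs) was used. The size factors were 1.63 and 1.42 in ASO and 0.782 and 0.557 in CRO. Recovery was tested on simulated data. No source used here names molecular identifiers, so intervals cover only the counting error of independent reads, and duplicate reads cannot be seen.

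The authors' adjusted p (threshold 0.05) was the main test. limma 3.58.1 (R 4.3.3), with a trended and robust prior, on log2(normalized count + 1), for base means of at least 10, gave errors, with Benjamini-Hochberg adjustment; arm ratios were fitted robustly without trend. Both steps were tested on simulated data whose changes were larger than those of the members. The edgeR test planned for deposited counts per library was not used, since the table holds group means. Other steps used pandas 2.3.3, scipy 1.17.1, numpy 2.4.6 and Python 3.11.15. Named were the members, the 5 nearest in pattern and 3 above and below in level of each guide arm. Up to 4 most counted per list were named too. Exceptions picked by their values are marked, and other miRNAs are named for a shared seed, shared counts, list overlap or a call. Members and lists were chosen with earlier results of these data known. Alternatives were pseudocounts of 0.5 and 10, no filter, a base mean of at least 50, other scalings, limma-voom and leaving out each library.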

Additional observations from a re-analysis of the deposited data

How the results depend on the processing

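What limits the values is the 2 libraries of each group, the shallower CRO libraries (5617699 and 3300457 reads), and the 14 to 39 reads behind miR-222-5p. No paired analysis was possible because nothing ties a recovered library to a replicate number. Of 62 alternative values of the 4 members and the 2 arm ratios, 54 kept their direction and did not pass, 8 changed sign and 0 passed, with a smallest limma adjusted p of 0.562. Leaving out a library gave log2 ratios of -0.063 to 0.015 (miR-221-3p), -0.36 to 0.063 (miR-222-3p), -0.31 to 0.042 (miR-221-5p) and -0.18 to 0.48 (miR-222-5p). Leaving one out gave arm ratio differences of -0.027 to 0.25 (miR-221) and -0.64 to 0.043 (miR-222). Differences in log2 miR-221 over miR-222 then ran from -0.078 to 0.33 for the guide arms and -0.47 to -0.10 for the passenger arms. Any limma p with a library left out assumes that the lone library of a group varies like the other group. With upper-quartile scaling miR-221-3p was at 0.069. Scalings and limma-voom were not run for ratios within a library, where a scaling cancels. With a base mean of at least 50, miR-222-5p and the miR-222 arm ratio could not be given.

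Over all miRNAs the authors' table calls 12 lower and 1 higher in ASO, and a raw p under 0.05 with a 2-fold difference in that table gave 4 higher. limma on the recovered libraries called 14 lower and 1 higher, with 59 at a raw p under 0.05. Against that limma count, scaling to library totals without miR-155-5p gave 7 lower. A base mean of at least 50 gave 0 higher in limma (47 miRNAs at a raw p under 0.05), and leaving out a library gave 4 (without ASO a) to 32 (without CRO a) lower and 0 (without ASO a, or without ASO b) to 31 (without CRO a) higher in limma. The 0 hairpins called for arm use became 1, miR-3068, with a base mean of at least 50. The cause of these shifts was not tested.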
